A study of Danio rerio with 10 samples.

Results

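The genes described here code for proteins that copy DNA and divide cells, measured in zebrafish embryos (Danio rerio) that lacked both rbpms2a and rbpms2b and in their control siblings. The genes were chosen by name: 48 gene symbols, of which 23 belong to DNA replication and 25 to mitosis. All 48 symbols were found, on 50 of the 32266 gene lines of the deposited table, because rrm2 and ube2c stand on 2 lines each. That gives 24 replication lines and 26 mitosis lines, and all 50 passed the filter on low counts, as did 20802 lines in all.

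The double mutants were rbpms2a-/-; rbpms2b-/- and carry the genotype label mutant; the control siblings carry the genotype label wt. Mutants were picked out by eye at 33 hours post fertilization, so the genotype of each control is not known, and siblings sorted in this way can include carriers. Each group had 5 libraries, numbered 1, 2, 3, 4 and 6, each made from polyadenylated RNA of a pool of 10 whole embryos. Rbpms2a and rbpms2b code for Rbpms2, an RNA-binding protein of heart muscle and other tissues. No other allele or agent is given in the labels. In the fit without the replicate number, p-values measure the spread between pools. In the fit with it, they measure the spread left after differences between numbers are taken out.

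A dividing cell first licenses its replication origins by loading the MCM helicase onto DNA, then copies the genome in S phase, and then condenses and parts its chromosomes in mitosis. Transcription of most replication genes is driven by E2F factors at the entry into S phase, whereas many mitotic genes peak later, under the MuvB complex with B-Myb and FoxM1. At this stage of zebrafish development the brain, retina, blood and many other tissues still hold dividing cells. In RNA from whole embryos, fewer dividing cells and less RNA per dividing cell cannot be told apart.

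Total counts ran from 29.1 to 35.2 M in mutants and from 21.5 to 35.99 M in controls (M, 1000000 counts). Of the targeted genes, rbpms2a lay between 2.42 and 3.91 CPM (counts per 1000000, scaled by TMM factors) in mutants, against 4.25 to 7.05 CPM in controls, and rbpms2b between 11.98 and 22.2 CPM in mutants, against 10.3 to 18.3 CPM in controls. Both ranges of rbpms2b overlapped and those of rbpms2a did not, so RNA levels set the labels apart for rbpms2a only. The lowest count of any of the 50 replication and mitosis lines was 236, for gins2 in control 6. None of these lines was thus limited by depth to a handful of reads.

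Levels between genes were compared per length, in the FPKM that the authors deposited (fragments per kilobase and per 1000000 reads). Among replication genes, pcna, the sliding clamp that holds polymerases on DNA, stood first, with 506 ± 72.0 FPKM in mutants and 544 ± 56.7 FPKM in controls (SD, n = 5 each). Its mean in controls ranked 207 among all tested genes. Rrm2 (ENSDARG00000078069), the small subunit of ribonucleotide reductase, which makes the deoxynucleotides for DNA synthesis, came next with 330 ± 40.9 FPKM in mutants and 338 ± 48.2 FPKM in controls (SD, n = 5 each). Orc1, the largest subunit of the origin recognition complex, was the lowest replication gene in controls, with 13.4 ± 0.661 FPKM in mutants and 13.2 ± 1.18 FPKM in controls (SD, n = 5 each).

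The 6 genes of the MCM ring, whose products form 1 complex, did not share 1 level. Mcm3 was the lowest, at 60.8 ± 5.62 FPKM in mutants and 63.8 ± 6.401 FPKM in controls, and mcm7 the highest, at 211 ± 13.3 FPKM in mutants and 215 ± 27.8 FPKM in controls (SD, n = 5 each). The level of mcm7 is uncertain, since its estimated counts were whole in 0 of 10 libraries, which means that reads were divided with another locus. The same held for mcm6, mki67, plk1 and both rrm2 lines, 6 lines in all, whereas 14 of the 50 lines had whole counts in every library.

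Among mitosis genes, tpx2, which nucleates spindle microtubules and activates Aurora A, stood first at 122 ± 9.91 FPKM in mutants and 127 ± 8.18 FPKM in controls (SD, n = 5 each). Mki67, the Ki-67 coat protein of mitotic chromosomes, followed at 111 ± 6.98 FPKM in mutants and 114 ± 5.47 FPKM in controls (SD, n = 5 each). Of the 3 B-type cyclins, the activators of Cdk1, ccnb1 was at 92.5 ± 6.85 FPKM in mutants and 93.1 ± 5.16 FPKM in controls, ccnb3 at 31.1 ± 2.81 FPKM in mutants and 30.2 ± 2.04 FPKM in controls, and ccnb2 at 9.67 ± 0.864 FPKM in mutants and 10.4 ± 0.412 FPKM in controls (SD, n = 5 each). Ccnb1 was thus the main B-type cyclin transcript of these embryos in both groups, and ccnb2 the lowest of all 50 lines.

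**Figure D1:**
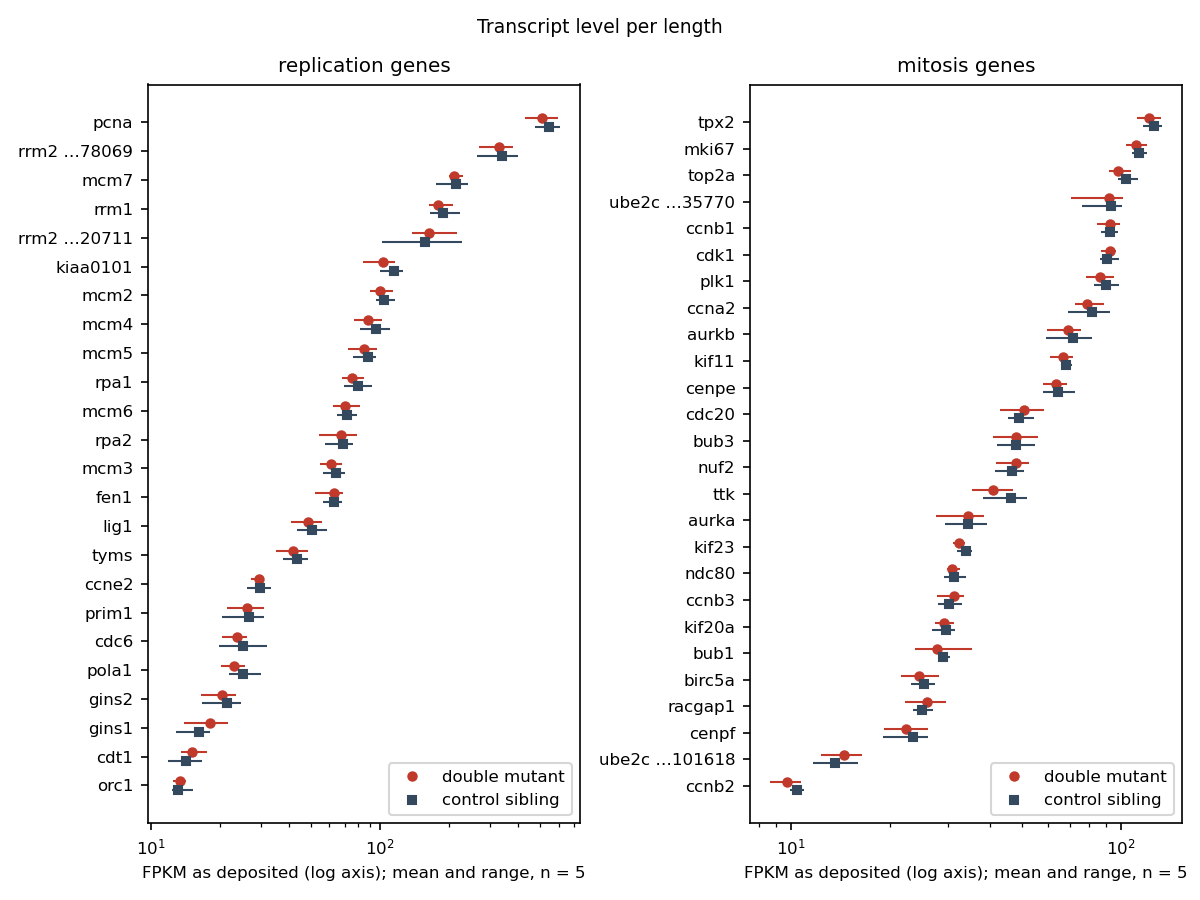
Deposited FPKM of each gene on a log axis, replication genes on the left and mitosis genes on the right; symbols are means and lines the range of 5 libraries, double mutants as circles and control siblings as squares. Levels run from ccnb2 at 9.67 FPKM in mutants and 10.4 FPKM in controls up to pcna at 506 FPKM in mutants and 544 FPKM in controls.

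Double mutants were first compared with control siblings. The log2 fold changes of replication and mitosis genes were small and mostly below 0 (44 of 50 lines), and 0 of the 50 lines passed the adjusted threshold of 0.05 in edgeR's quasi-likelihood test. In the fit without the replicate number, 1 of 20802 tested genes passed (0.00481%), a gene outside these lists, and 406 (1.95%) had an unadjusted p under 0.05, of which 1 was a member, kiaa0101. DESeq2 also called 0 of the 50 without the block. With the replicate number as a block, 53 genes passed (0.255%), again 0 of the 50.

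The summed level of the 24 replication lines was 4531, 4297, 4044, 3690 and 3673 CPM in mutants 1, 2, 3, 4 and 6, against 4802, 4439, 4285, 3969 and 3906 CPM in controls 1, 2, 3, 4 and 6. The groups overlapped, yet the mutant was the lower library under each of the 5 numbers, at 93.0 to 96.8% of its control. Their means were 4047 ± 376 CPM in mutants and 4280 ± 365 CPM in controls (SD, n = 5 each), so the mutant mean was 94.5% of the control mean.

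The summed level of the 26 mitosis lines was 3920, 3658, 3896, 3583 and 3673 CPM in mutants 1, 2, 3, 4 and 6, against 3971, 3888, 4027, 3753 and 3842 CPM in controls 1, 2, 3, 4 and 6. Again the groups overlapped and the mutant was the lower library under each number, at 94.1 to 98.7% of its control. The mutant mean was 96.2% of the control mean (3746 ± 152 CPM in mutants and 3896 ± 108 CPM in controls, SD, n = 5 each). These sums share a scaling and are dominated by abundant genes, and no test was made on them.

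**Figure D2:**
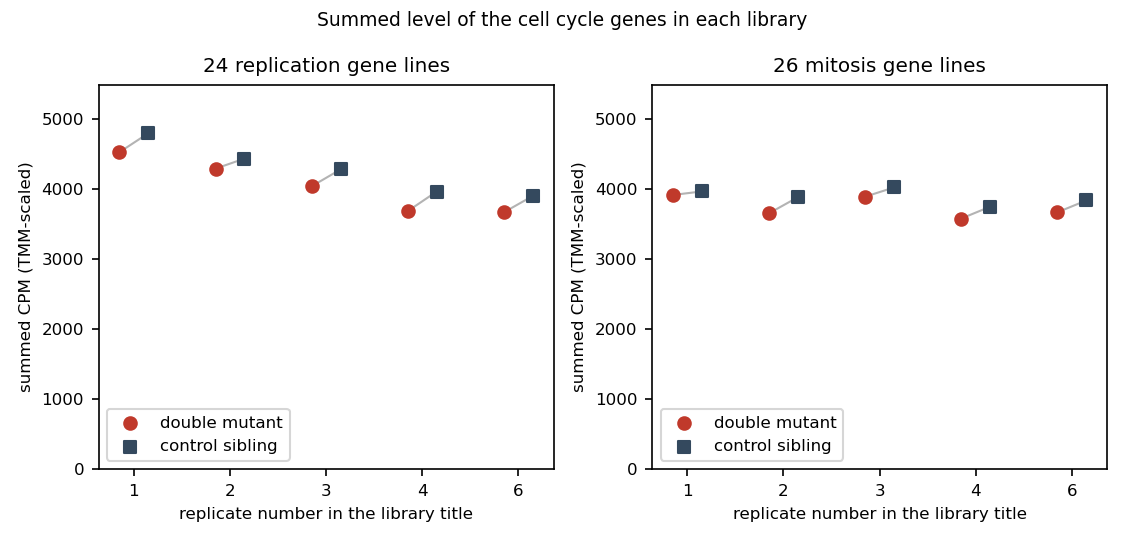
Summed CPM of the replication genes (left) and the mitosis genes (right) in each library, by the replicate number of its title; circles are double mutants, squares control siblings, and grey lines join libraries of the same number. The mutant lies below its control under all 5 numbers in both panels, and in the replication panel numbers 4 and 6 lie below number 1 in both genotypes.

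Counted by gene, 21 of the 24 replication lines and 23 of the 26 mitosis lines had a log2 fold change of mutants over controls below 0. Over all tested genes, 10557 lay above 0 and 10245 below. Of the 9076 tested genes with a mean of at least 13.5 CPM, the level of the lowest member, 4107 lay above 0 and 4969 below. The median log2 fold change was -0.07 for replication lines and -0.05 for mitosis lines. It was 0.002 for all tested genes and -0.009 for those of at least 13.5 CPM. The typical standard error of 1 gene was 0.0813 without the block and 0.0423 with it, which is not the error of a list median. List medians taken within each replicate number had an SD of 0.0398 (replication) and 0.0226 (mitosis) log2 units between numbers. Both list medians depend on single libraries. The replication median was -0.03 without control 1 (16 of 24 lines below 0), -0.04 without mutant 4 (18 of 24) and -0.04 without mutant 6 (17 of 24), and it was -0.11 without mutant 1, without control 4 or without control 6. The mitosis median was -0.03 without mutant 4 (18 of 26 lines below 0), and -0.08 without control 4 or without mutant 1. On the deposited FPKM scale, where the median of all genes shifted to 0.02, 39 of the 50 lines lay below 0.

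Within the replicate numbers the mutant was the lower library in 5 of 5 pairs for 10 replication and 6 mitosis lines, and the higher one in 5 of 5 pairs for 1 line, cdt1. The background over all tested genes was 5.01% lower and 5.62% higher in 5 of 5 pairs. Of the 9076 tested genes of at least 13.5 CPM, 670 were lower and 524 higher in 5 of 5 pairs. With the block, 12 of the 50 lines were lower at an unadjusted p under 0.05 in edgeR, 7 replication and 5 mitosis lines, where 4.84% of all tested genes were, and 1 line, gins1, was higher, where 5.67% of all tested genes were. In that test 686 of the same 9076 genes were lower and 614 higher. Mutant and control ranges in CPM were separate for 0 of the 50 lines, beside a background of 0.466%. All lines come from the same libraries, and many replication lines moved together between them. The lines are thus not independent repeats of the comparison of genotypes.

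Of the replication genes with a role in priming, the clamp and joining of fragments, all 8 lines were below 0, with a median log2 fold change of -0.09. Kiaa0101, named pclaf in a separate gene table, codes for a small protein that binds PCNA. Its level was 34.1, 33.4, 32.0, 26.2 and 25.7 CPM in mutants 1, 2, 3, 4 and 6, against 38.8, 38.6, 36.2, 31.5 and 31.8 CPM in controls 1, 2, 3, 4 and 6. The groups overlapped, with mutants 1, 2 and 3 inside the range of controls, while the mutant was the lower library in 5 of 5 pairs. The log2 fold change of kiaa0101 was -0.23 (SE 0.102, unadjusted p = 0.0459, adjusted p = 1.00 in edgeR), and -0.23 with the block (SE 0.0488, adjusted p = 0.0638). It passed in DESeq2 with the block (adjusted p = 0.0494) and in edgeR with the block without number 4 (adjusted p = 0.0354). Over the 8 alternatives with the block its adjusted p ran from 0.0354 to 0.252. An exact two-sided permutation test on CPM, which left the replicate numbers out, gave p = 0.0794 for kiaa0101.

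Pcna, to which the kiaa0101 product binds, had 735, 688, 641, 538 and 556 CPM in mutants 1, 2, 3, 4 and 6, against 759, 734, 678, 607 and 662 CPM in controls 1, 2, 3, 4 and 6. Mutants 4 and 6 were the lowest libraries, and the mutant was lower in 5 of 5 pairs. Its log2 fold change with the block was -0.13 (SE 0.0421, adjusted p = 0.257 in edgeR). Pola1, the catalytic subunit of DNA polymerase alpha, had 124, 108, 115, 110.5 and 100.05 CPM in mutants 1, 2, 3, 4 and 6, against 145, 123, 124, 108 and 112 CPM in controls 1, 2, 3, 4 and 6. The mutant was lower in 4 of 5 pairs, number 4 being the exception, and the log2 fold change with the block was -0.13 (SE 0.0417, adjusted p = 0.226 in edgeR). Without number 4 it was -0.17 (adjusted p = 0.0272), and over the 8 alternatives with the block the adjusted p of pola1 ran from 0.0272 to 0.605.

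Rpa1, the large subunit of the single-strand binding protein RPA, had a blocked log2 fold change of -0.10 (SE 0.0368) and was lower in 5 of 5 pairs, with an adjusted edgeR p of 0.306. The others of this role lay between -0.07 for lig1, the ligase that seals lagging-strand fragments, and -0.02 for fen1, the flap nuclease that trims them. Prim1, the primase, and rpa2 were both at -0.05. None of these passed the adjusted threshold.

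Of the 8 helicase lines, 7 were below 0, with a median log2 fold change of -0.08. Mcm4 had 284, 265, 246, 217 and 241 CPM in mutants 1, 2, 3, 4 and 6, against 313, 289, 279, 253 and 244 CPM in controls 1, 2, 3, 4 and 6. The mutant was the lower library in 5 of 5 pairs, by 0.02 to 0.22 log2 units, although the groups overlapped. The log2 fold change of mcm4 with the block was -0.14 (SE 0.0414, unadjusted p = 0.00457, adjusted p = 0.215 in edgeR). Mcm7 had 253, 281, 248, 229 and 233 CPM in mutants 1, 2, 3, 4 and 6, against 298, 280, 285, 224 and 239 CPM in controls 1, 2, 3, 4 and 6, and its blocked log2 fold change was -0.09 (SE 0.0463). In mcm7 the mutant was lower in 3 of 5 pairs only, so the libraries disagreed on its direction, and its log2 fold change was -0.02 in limma-trend on the deposited FPKM. The blocked log2 fold changes of mcm2, mcm3, mcm5 and mcm6 lay between -0.08 and -0.04.

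Gins1 and gins2, subunits of the GINS complex that completes the active helicase, stood on opposite sides of 0. Gins1 had 21.1, 20.9, 19.3, 14.3 and 14.04 CPM in mutants 1, 2, 3, 4 and 6, against 17.9, 17.4, 17.5, 14.96 and 13.2 CPM in controls 1, 2, 3, 4 and 6. Mutants 1, 2 and 3 lay above all controls and mutants 4 and 6 among the lowest libraries, so the groups overlapped. Its blocked log2 fold change was 0.14 (SE 0.0647, adjusted p = 0.472 in edgeR), that of gins2 was -0.09 (SE 0.0633, adjusted p = 0.664 in edgeR), and the difference between the genes was not tested.

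Of the origin licensing genes, cdc6, an ATPase that helps load MCM, had 51.8, 46.2, 47.1, 52.6 and 41.9 CPM in mutants 1, 2, 3, 4 and 6, against 64.4, 47.2, 47.8, 54.5 and 41.99 CPM in controls 1, 2, 3, 4 and 6. Control 1 stood above the other 9 libraries, and without it the log2 fold change of -0.10 became 0.0015. Cdt1, the loading partner of cdc6, was at 31.2 ± 3.15 CPM in mutants and 29.7 ± 3.81 CPM in controls (SD, n = 5 each), and its blocked log2 fold change was 0.07 (SE 0.0501, adjusted p = 0.654 in edgeR). Cdt1 also lies on the chromosome of a targeted gene: in the gene order of the assembly GRCz12tu it is 112 genes from rbpms2b, closer than any other of the 47 symbols placed. Ccnb2, tyms and ccnb3 lie on the same chromosome, 419, 441 and 689 genes from rbpms2b. The only placed symbol on the chromosome of rbpms2a was kiaa0101, 190 genes away.

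Of the genes that supply nucleotides, rrm1, the large subunit of ribonucleotide reductase, was at 486 ± 41.4 CPM in mutants and 515 ± 53.1 CPM in controls (SD, n = 5 each), and its blocked log2 fold change was -0.08 (SE 0.0385, adjusted p = 0.456 in edgeR). The abundant rrm2 line had 700, 670, 613, 594 and 518 CPM in mutants 1, 2, 3, 4 and 6, against 742, 663, 641, 636 and 518 CPM in controls 1, 2, 3, 4 and 6. Its blocked log2 fold change was -0.05 (SE 0.0396), and number 2 alone had the higher mutant. Tyms, thymidylate synthase, was at -0.07 (SE 0.0492) and ccne2, a cyclin E that drives entry into S phase, at -0.03 (SE 0.0455), both with the block. Ccne2 had 57.0, 57.8, 55.4, 57.5 and 50.6 CPM in mutants 1, 2, 3, 4 and 6, against 63.2, 55.8, 58.6, 57.5 and 48.6 CPM in controls 1, 2, 3, 4 and 6, so most libraries lay within a few CPM of each other.

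The other rrm2 line (ENSDARG00000020711) is printed because its range between replicate numbers was the widest. It had 58.2, 50.1, 50.3, 72.7 and 47.99 CPM in mutants 1, 2, 3, 4 and 6, against 56.8, 37.2, 44.8, 58.4 and 72.9 CPM in controls 1, 2, 3, 4 and 6. Mutant 4 and control 6 were the highest libraries and the groups overlapped, and its SE of 0.160 with the block was the largest of all 50 lines. Its blocked log2 fold change was 0.07. The estimated counts of both rrm2 lines were not whole in any library, so the levels of both are uncertain. Whether they shared reads with each other was not tested.

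Of the 8 lines of mitotic cyclins and their partners, 6 were below 0, with a median log2 fold change of -0.03. The 2 above 0 were cdk1, at 0.009, and the ube2c line ENSDARG00000101618, at 0.07. Ccnb1 had 146, 137, 146, 118 and 131 CPM in mutants 1, 2, 3, 4 and 6, against 140, 150, 151, 141 and 141 CPM in controls 1, 2, 3, 4 and 6. Mutant 4 was the lowest library and mutant 1 lay above its control, and the blocked log2 fold change was -0.10 (SE 0.0436, adjusted p = 0.449 in edgeR). The log2 fold change of ccnb1 was -0.01 in limma-trend on the deposited FPKM and, without the block, -0.05 without mutant 4. Ccnb2 was at 12.8 ± 1.08 CPM in mutants and 14.2 ± 0.637 CPM in controls (SD, n = 5 each), lower in 5 of 5 pairs, with the mitosis value farthest from 0: -0.15 (SE 0.0690, adjusted p = 0.469 in edgeR with the block). Cdk1 itself, the kinase these cyclins activate, was at 109 ± 4.75 CPM in mutants and 108 ± 5.25 CPM in controls (SD, n = 5 each), a blocked log2 fold change of 0.01 (SE 0.0378).

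Cdc20, which activates the anaphase-promoting complex, had a blocked log2 fold change of -0.004 (SE 0.0437). Ube2c (ENSDARG00000035770), the E2 enzyme of that complex, had 73.1, 75.5, 74.0, 52.3 and 65.2 CPM in mutants 1, 2, 3, 4 and 6, against 72.8, 74.4, 75.1, 68.8 and 58.6 CPM in controls 1, 2, 3, 4 and 6. Mutant 4 was the lowest, and without it the log2 fold change of -0.04 became 0.04. The second line with this symbol (ENSDARG00000101618) carries the name DNTTIP1 in a separate gene table, so its identity is uncertain. It was at 14.2 ± 1.37 CPM in mutants and 13.6 ± 1.53 CPM in controls (SD, n = 5 each), and without it 23 of 25 mitosis lines were below 0, with a median of -0.05.

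Of the chromosome and kinase genes, top2a, the topoisomerase that untangles sister chromatids, had 426, 372, 408, 384 and 386 CPM in mutants 1, 2, 3, 4 and 6, against 452, 399, 421, 421 and 413 CPM in controls 1, 2, 3, 4 and 6. The mutant was lower in 5 of 5 pairs, by 0.04 to 0.13 log2 units. Top2a had the smallest p of the mitosis lines with the block, with a log2 fold change of -0.09 (SE 0.0385, unadjusted p = 0.0298, adjusted p = 0.415 in edgeR). Mki67 had 945, 832, 909, 888 and 853 CPM in mutants 1, 2, 3, 4 and 6, against 942, 895, 951, 881 and 917 CPM in controls 1, 2, 3, 4 and 6, a blocked log2 fold change of -0.05 (SE 0.0402). Its libraries were mixed: the mutant was lower in 3 of 5 pairs.

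Plk1, a kinase of mitotic entry and spindle assembly, had 203, 199, 218, 181 and 191 CPM in mutants 1, 2, 3, 4 and 6, against 209, 219, 226, 198 and 199 CPM in controls 1, 2, 3, 4 and 6. It was lower in 5 of 5 pairs, and its blocked log2 fold change was -0.08 (SE 0.0385, adjusted p = 0.465 in edgeR). Aurkb and birc5a, kinase and subunit of the chromosomal passenger complex, were both at -0.07, and aurka, the spindle pole kinase, was at -0.05. The SEs of these values with the block lay between 0.0446 and 0.0549.

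Of the 7 checkpoint and kinetochore genes, 6 were below 0, with a median log2 fold change of -0.05. Ttk, the Mps1 kinase at the top of the spindle checkpoint, had 99.0, 90.4, 94.8, 87.8 and 88.2 CPM in mutants 1, 2, 3, 4 and 6, against 105, 94.4, 102, 91.8 and 94.0 CPM in controls 1, 2, 3, 4 and 6. It was lower in 5 of 5 pairs, by 0.06 to 0.10 log2 units, and its blocked log2 fold change was -0.08 (SE 0.0371, adjusted p = 0.459 in edgeR), against -0.18 in limma-trend on the deposited FPKM. Cenpe, a kinetochore motor, had 278, 248, 269, 247 and 269 CPM in mutants 1, 2, 3, 4 and 6, against 287, 253, 275, 263 and 282 CPM in controls 1, 2, 3, 4 and 6. It too was lower in 5 of 5 pairs, and its blocked log2 fold change was -0.05 (SE 0.0383, adjusted p = 0.679 in edgeR), against -0.02 in limma-trend on the deposited FPKM. Bub1 was at -0.06, ndc80 at -0.04 and bub3 at -0.02, whereas nuf2, which pairs with ndc80 at the kinetochore, was at 0.03, all with the block and with SEs of 0.0409 to 0.0425.

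All 5 genes of spindle motors and cytokinesis were below 0, from -0.07 for kif23 to -0.03 for racgap1, the members of the centralspindlin complex that organises the midzone. Kif23 was at 82.9 ± 1.32 CPM in mutants and 87.1 ± 3.71 CPM in controls (SD, n = 5 each), lower in 5 of 5 pairs. Tpx2 had 251, 234, 255, 213 and 227 CPM in mutants 1, 2, 3, 4 and 6, against 257, 249, 253, 234 and 236 CPM in controls 1, 2, 3, 4 and 6. It was lower in 4 of 5 pairs, and its blocked log2 fold change was -0.06 (SE 0.0396), and the motors kif11 and kif20a had -0.05 and -0.03. None of the 5 passed the adjusted threshold, the smallest adjusted p being 0.564, for kif23 in edgeR with the block.

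**Figure D3:**
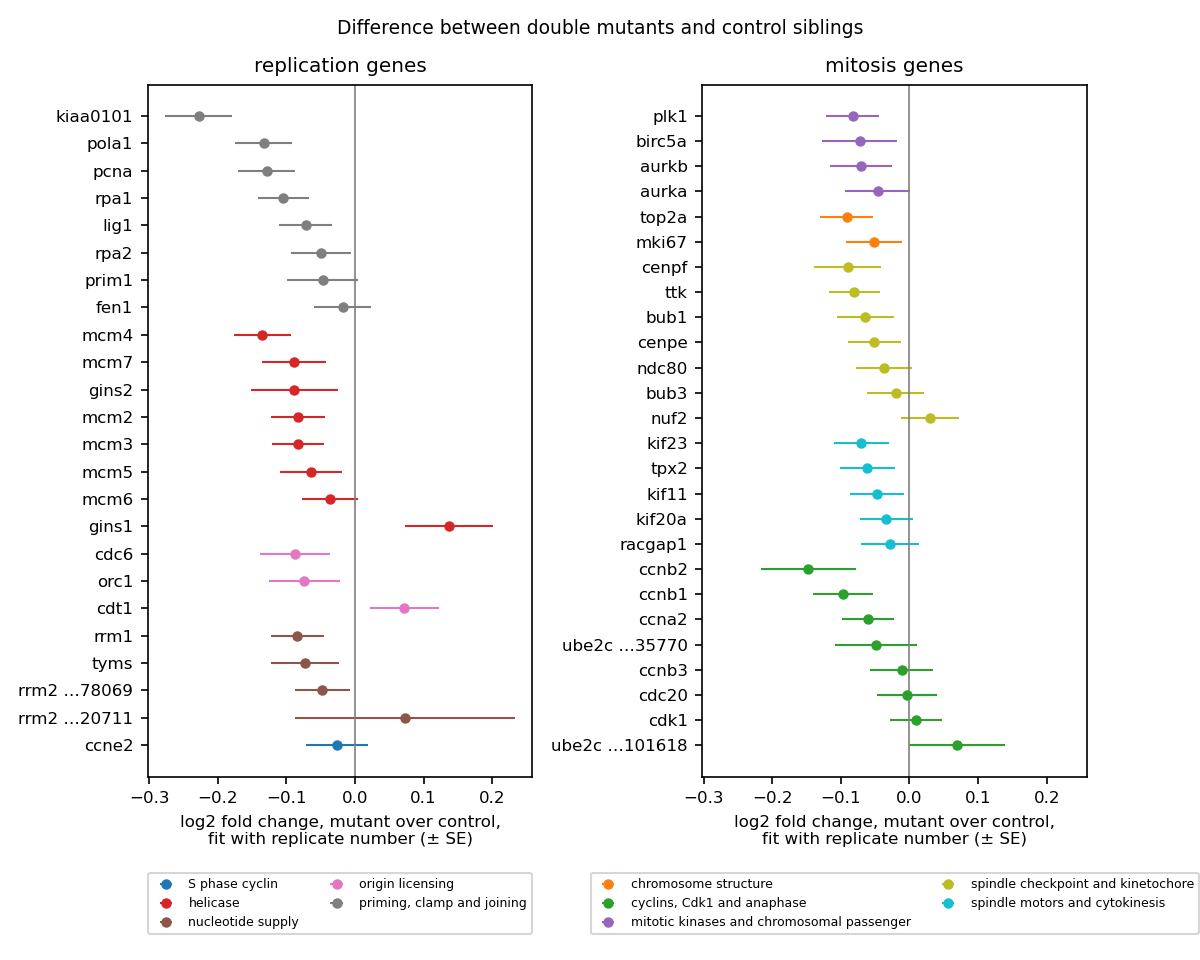
Log2 fold change of mutants over controls for each gene line, with its standard error, from the fit that includes the replicate number; colours are roles, replication on the left and mitosis on the right. Most points lie between -0.15 and 0, kiaa0101 is farthest below 0 at -0.23, gins1 is farthest above at 0.14, and 0 of the 50 passed the adjusted threshold.

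The replication genes were then compared between replicate numbers. An F test of the 4 number terms, in the edgeR fit with genotype, called 22 of the 24 replication lines and 11 of the 26 mitosis lines, where 43.3% of all 20802 tested genes were called. Among the 9076 tested genes with a mean of at least 13.5 CPM, the level of the lowest member, the share was 55.5%. The numbers are taken from the library titles, and no label says what they stand for.

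In the replication genes the highest number was 1 for 17 of 24 lines and 2 for 6 lines, and the lowest number was 4 or 6 for 23 lines. Over all tested genes number 1 was the highest for 16.7% and number 2 for 21.4%, and number 4 was the lowest for 24.6% and number 6 for 20.7%. The median deviation of a replication line from its own mean over the libraries was 0.16, 0.09, 0.02, -0.14 and -0.13 log2 units under numbers 1, 2, 3, 4 and 6. The same medians over all tested genes lay between -0.001 and 0.007.

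The summed replication level, averaged over both libraries of a number, was 4666 CPM under number 1, the highest, and 3790 CPM under number 6, the lowest, a ratio of 1.23. Within mutants alone the ratio of the highest to the lowest library was 1.23, and within controls alone it was also 1.23. Number 1 was the highest and number 6 the lowest in mutants and in controls alike. For the mitosis genes the ratio was 1.08 for the means of both libraries, highest under number 3 and lowest under number 4, 1.09 within mutants, where number 1 was the highest, and 1.07 within controls.

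**Figure D4:**
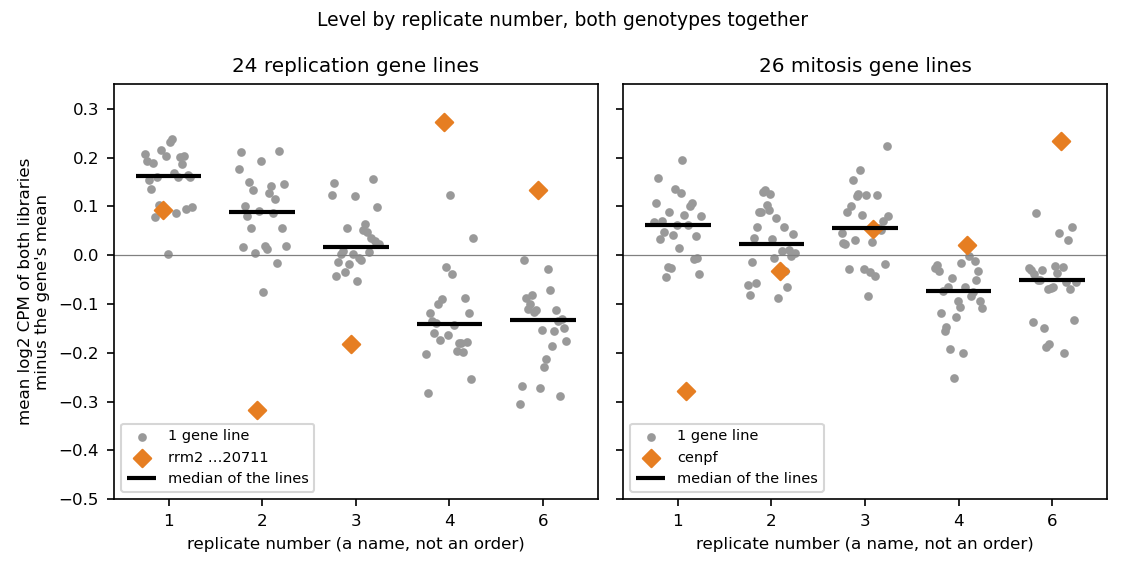
Mean log2 CPM of both libraries of a replicate number, minus the gene's mean, for each gene line (grey points) and their median (black bar); replication genes on the left, mitosis genes on the right. The replication medians are 0.16 under number 1 and -0.14 under number 4, with the rrm2 line ENSDARG00000020711 (orange) at 0.27 under number 4, and cenpf (orange, right) lies at -0.28 under number 1 and 0.23 under number 6.

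By role, the range between numbers had a median of 0.45 log2 units in the 3 licensing genes, 0.42 in nucleotide supply, 0.36 in priming, clamp and joining, and 0.30 in the helicase. The F test called all 8 helicase lines, all 8 lines of priming, clamp and joining, 3 of 4 of nucleotide supply, 2 of 3 of licensing, and ccne2. Rrm2 (ENSDARG00000078069) had one of the clearest patterns, with a range of 0.48 log2 units and an adjusted p of 0.000207 in edgeR. The lines not called were orc1 (adjusted p = 0.0507 in edgeR) and rrm2 ENSDARG00000020711 (0.334 in the same test), which had the widest range of all, 0.59.

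Pcna illustrates the pattern in single libraries: mutant 1 had 735 CPM and mutants 4 and 6 had 538 and 556 CPM, while control 1 had 759 CPM and controls 4 and 6 had 607 and 662 CPM. Its range between numbers was 0.39 log2 units (adjusted p = 0.000925 for the number terms in edgeR), and its blocked log2 fold change between genotypes was -0.13. The range is the highest minus the lowest number mean and the fold change a contrast of the groups, so their sizes are not directly comparable. Cdc6 differed in shape: its deviation was 0.23 under number 1, 0.12 under number 4 and -0.23 under number 6, so numbers 4 and 6 were not alike for every gene.

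The mitosis genes varied less between numbers, with a median range of 0.22 log2 units, against 0.35 for replication lines, 0.45 for all tested genes and 0.31 for tested genes of at least 13.5 CPM. Kif23, ndc80, kif11 and mki67 had the narrowest ranges, 0.09 to 0.13 log2 units. Aurka and bub3 had wide ranges, 0.43 and 0.40, and were lowest under number 4. Cenpf, a large kinetochore protein, had the widest, 0.51 (adjusted p = 0.000962 for the number terms in edgeR).

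Cenpf also ran opposite to the replication genes. It had 169, 179, 202, 212 and 237 CPM in mutants 1, 2, 3, 4 and 6, against 169, 223, 224, 204 and 244 CPM in controls 1, 2, 3, 4 and 6. Number 1 was thus the lowest and number 6 the highest in both genotypes. Between genotypes its blocked log2 fold change was -0.09 (SE 0.0489, adjusted p = 0.538 in edgeR).

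**Figure D5:**
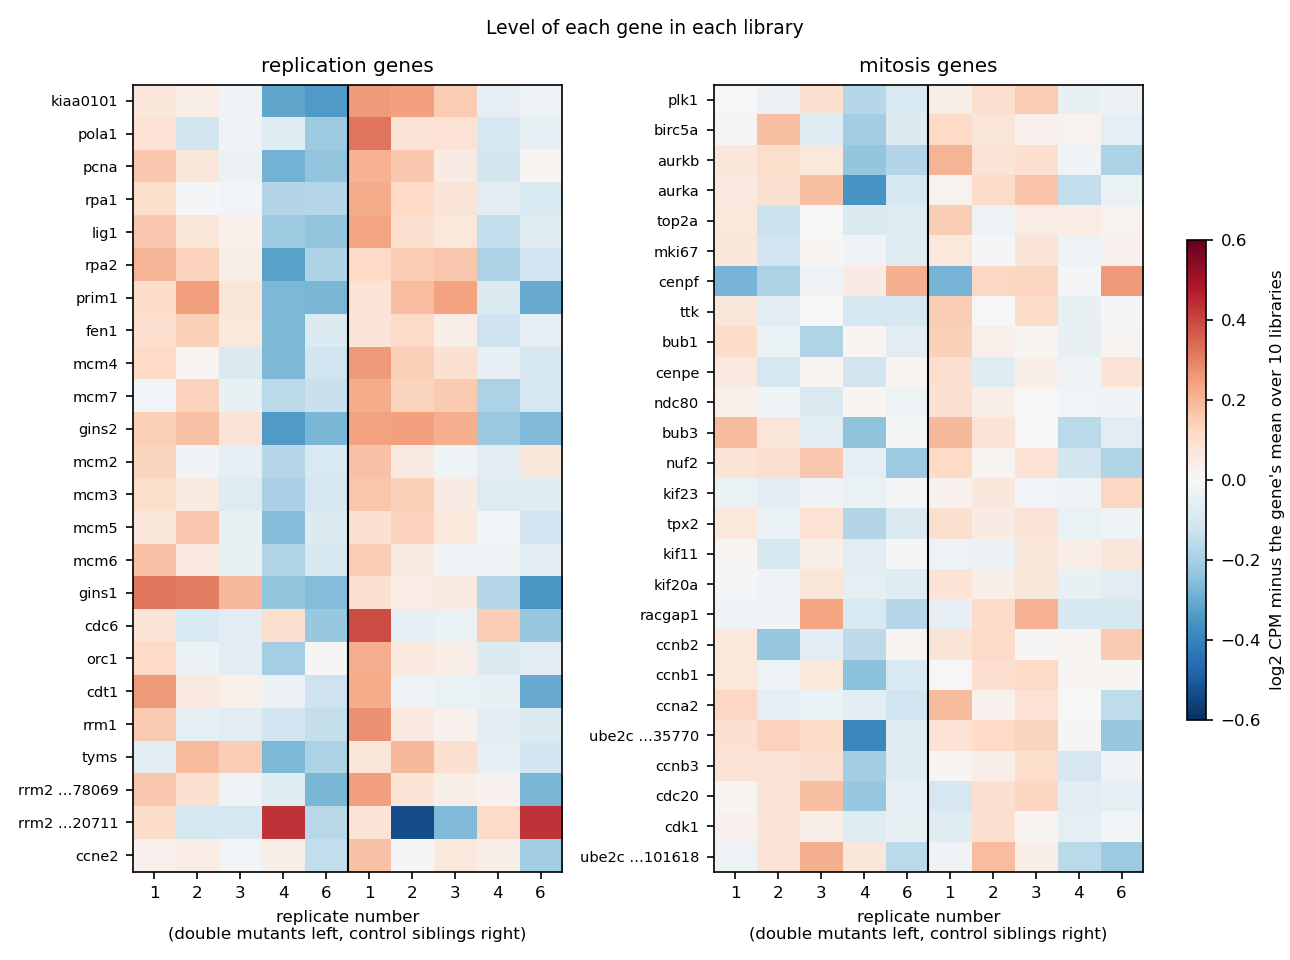
Log2 CPM of each gene line in each library minus the gene's mean over the 10 libraries, double mutants in the left 5 columns and control siblings in the right 5 of each panel; red is above and blue below the mean. Most replication genes are red under number 1 and blue under numbers 4 and 6 in both genotypes, and the mitosis genes are paler, with cenpf as an exception.

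Markers of other tissues differed between the numbers too. Summed over 5 skeletal muscle markers, all detected, the level was 8031 to 10369 CPM in mutants 1, 2 and 3 and 15216 and 16063 CPM in mutants 4 and 6, against 8640 to 10080 CPM in controls 1, 2 and 3 and 16892 and 18663 CPM in controls 4 and 6. Numbers 4 and 6, low in replication genes, were thus high in muscle markers in both genotypes. Summed over 6 neuron markers the level was 1103 and 961 CPM in mutants 4 and 6 and 676 to 846 CPM in the other mutants, against 975 and 989 CPM in controls 4 and 6 and 752 to 846 CPM in the other controls. Summed neural progenitor markers, 7 of 8 listed symbols being present, ranged from 1249 to 1667 CPM in mutants and from 1410 to 1672 CPM in controls. The means of this sum over both libraries were lowest under number 2 and highest under number 4. Its single genes disagreed: sox2, sox3 and sox19a were each highest under number 1 and lowest under number 6, as many replication genes were. Notch3, fabp7a and her4.1 were highest under number 4, and her6 was highest under number 3 and lowest under number 4. Not every tissue rose under numbers 4 and 6. Averaged over both libraries, epidermis markers summed to 22447, 26645, 23761, 19465 and 20898 CPM under numbers 1, 2, 3, 4 and 6. Control 6 (22272 CPM) was nevertheless above control 1 (21969 CPM). Red blood cell markers averaged 2482, 4165, 3622, 3724 and 3087 CPM under the same numbers, lowest under number 1. The part of these tissues in the values by number was not tested.

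Between genotypes the muscle markers were at 91.9% of the control mean in mutants, the neural progenitor markers at 94.4% and the neuron markers at 99.7%. In each of these sums the mutant was the lower library in 4 of 5 pairs. The exceptions were number 1 in muscle (103% of its control) and number 4 in progenitor (103%) and neuron markers (113%). Notch3 alone had a mean of 661 CPM in controls, of a progenitor sum of 1538 CPM. By gene, sox2 and sox19a were lower in mutants in 5 of 5 pairs, notch3 and sox3 in 4, and her6 in 3. Fabp7a and her4.1 were higher in 3 of 5. The mutant sum was lower in 3 of 5 pairs for red blood cell and heart muscle markers. For epidermis, yolk syncytial layer and germ cell markers it was lower in 2 of 5. Mutants had 11814 ± 3602 CPM of muscle markers and controls 12859 ± 4570 CPM (SD, n = 5 each). Red blood cell markers (5 of 6 listed symbols present) ranged from 2492 to 4172 CPM in mutants and from 2472 to 4159 CPM in controls. Most of this sum came from the globins hbae3 and hbbe1.1, with means of 1792 and 1241 CPM in controls. Both were lower in mutants in 4 of 5 pairs, and slc4a1a in 3 of 5. Alas2 was higher in 5 of 5 pairs and gata1a in 4 of 5. Their blocked log2 fold changes were 0.14 and 0.28 (adjusted p = 0.199 and 0.208 in edgeR). Heart muscle markers (3) summed to 86.3 to 119 CPM in mutants and 88.7 to 94.9 CPM in controls. Epidermis (4 markers) and yolk syncytial layer (4) were at 99.9% and 104% of the control means. The 3 tested germ cell markers summed to 1.69 to 3.14 CPM in mutants and 1.63 to 2.74 CPM in controls, far below any of the 50 replication and mitosis lines. The part of these markers in the cell cycle values was not tested.

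Other genes of the same processes were read from lists written by role. Of 38 other replication genes, 37 were tested, and 0 passed in edgeR with or without the block. Of these, 31 were below 0, with a median log2 fold change of -0.07. With the block 7 had an unadjusted p under 0.05, all of them lower in mutants. The background was 4.84% of all tested genes, and 686 of the 9076 of at least 13.5 CPM. In this list the smallest p values were those of rpa3, the small RPA subunit, and pole, the catalytic subunit of DNA polymerase epsilon. Rpa3 was at 17.9 ± 4.54 CPM in mutants and 22.6 ± 5.16 CPM in controls (SD, n = 5 each), lower in 5 of 5 pairs, and its blocked log2 fold change was -0.35 (SE 0.0777, adjusted p = 0.0769 in edgeR).

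Rpa3 passed in DESeq2 with the block (adjusted p = 0.0375) and in edgeR with the block without number 6 (adjusted p = 0.0365), and its adjusted p over the 8 alternatives with the block ran up to 0.310. Pole was at 82.0 ± 6.22 CPM in mutants and 92.4 ± 8.77 CPM in controls (SD, n = 5 each), a blocked log2 fold change of -0.17 (SE 0.0419, adjusted p = 0.113 in edgeR). It passed in edgeR with the block without number 4 (adjusted p = 0.0276), and its adjusted p over the 8 alternatives with the block ran up to 0.518. The F test of the number terms called 29 of these 37 genes (78.4%), where it called 43.3% of all tested genes. Among tested genes of at least 13.5 CPM the share was 55.5%.

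Of 40 other mitosis genes, 38 were tested and 30 were below 0, with a median log2 fold change of -0.06. In edgeR 0 passed with or without the block. With the block 11 had an unadjusted p under 0.05, all lower in mutants. The background was 4.84% of all tested genes, and 686 of the 9076 of at least 13.5 CPM. Cdca8, the Borealin subunit of the passenger complex, was at 41.4 ± 5.60 CPM in mutants and 47.0 ± 3.64 CPM in controls (SD, n = 5 each), a blocked log2 fold change of -0.19 (SE 0.0552, adjusted p = 0.187 in edgeR), against -0.11 in limma-trend on the deposited FPKM. Espl1, the separase that cleaves cohesin, was at 79.6 ± 3.36 CPM in mutants and 86.6 ± 4.41 CPM in controls (SD, n = 5 each), with -0.12 (SE 0.0410, adjusted p = 0.293 in edgeR with the block). The number terms called 13 of the 38 (34.2%), below the 43.3% of all tested genes and the 55.5% of those of at least 13.5 CPM.

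Of 34 genes of G1 control, the phase before DNA copying, 30 were tested, 21 were below 0, and 0 passed in edgeR with or without the block. With the block 5 were lower and 1 higher at an unadjusted p under 0.05, where 4.84% of all tested genes were lower and 5.67% higher. Of the 9076 tested genes of at least 13.5 CPM, 686 were lower and 614 higher. The higher G1 gene was cdkn1a, the p21 inhibitor of cyclin-dependent kinases and a p53 target. It was at 2.12 ± 0.70 CPM in mutants and 1.48 ± 0.327 CPM in controls (SD, n = 5 each). Its blocked log2 fold change was 0.49 (SE 0.167, adjusted p = 0.291 in edgeR), higher in 4 of 5 pairs. E2f3, a factor that drives replication genes, was at 62.8 ± 5.58 CPM in mutants and 67.5 ± 6.27 CPM in controls (SD, n = 5 each), lower in 5 of 5 pairs, with -0.10 (SE 0.0418, adjusted p = 0.378 in edgeR with the block).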

How the data were processed

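Per the submitters' processing notes, the tools included STAR 2.5.3a, RSEM 1.3.0 and BWA 0.7.12-r1039, with the build GRCz10. Neither the annotation release nor the use of strand in counting is given in the sources used here. The authors deposited an estimated count per gene, in which reads shared by genes are divided among them, for each of 10 libraries. They also deposited log2 values, log2(FPKM + 0.1). FPKM was recovered by undoing the logarithm.

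Estimated counts were rounded to whole numbers. The main test was the two-sided quasi-likelihood test of edgeR 4.0.16 (R 4.3.3; filterByExpr, TMM, robust fit), adjusted after Benjamini and Hochberg over 20802 genes (threshold 0.05). The filter kept 99.94 to 99.95% of each library's counts. Log2 CPM per library used a prior count of 2. Replicate numbers were read as pairs, because same-numbered libraries deviated together (correlations of 0.54 to 0.60, over 0.1 in 5 of 5 pairs). Mutant and control libraries of different numbers had correlations of -0.47 to 0.51, so some of these deviated together almost as strongly. No label states a pairing. Blocked values come from the fit with the number as a term. The scripts were tested on simulated data with planted changes far larger than those of the cell cycle genes. That test does not show whether changes as small as theirs would be found. Alternatives used DESeq2 1.42.0 and limma 3.58.1.

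Members and lists were chosen with earlier results of these data known. Values in every library are given for the 3 lines of each list with the smallest blocked p, the line with the widest range between numbers, and the gene of each role that ranked first by FPKM; cdkn1a, e2f3, rpa3, pole, cdca8 and espl1 have the smallest blocked p of their lists. Gins1 was added after its values were seen. Neighbours come from a gene table of GRCz12tu. Of the 50 lines, 46 had a symbol that matched a separate table of gene names. No library was a copy of another (chi-square per degree of freedom of at least 5.66 in 45 pairs).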

Additional observations from a re-analysis of the deposited data

Results flagged for a closer look

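Of 104 groups of 5 libraries examined (the 50 gene lines and both sums, in mutants and in controls), 1 held a library far from the other 4; chance gives about 1 in 20, or 5.2. In rrm1, mutant 1 had 556 CPM and the other mutants 452 to 481 CPM; the gap to the nearest is 0.717 of the group's range, above the 0.71 used for 5 values. Control 1, at 603 CPM, was also the highest control of rrm1.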

How the results depend on the processing

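The replicate block left the members' calls at 0 of 50; over all genes 53 passed with it and 1 without. Without the block that count was 4 with DESeq2, 0 with limma-trend on log2(FPKM + 0.1), 2 on log2(FPKM + 1), and 0 to 3 without 1 library. With the block it was 17, 17, 21, 365 and 79 without both libraries of number 1, 2, 3, 4 and 6, 92 with DESeq2, and 8 with limma-trend on log2(FPKM + 1), a setting chosen after seeing the data. The replication count was 2 without number 4 (kiaa0101, pola1) and 1 with DESeq2 (kiaa0101), both with the block. Over 23 alternatives 36 to 46 of the 50 lines lay below 0, and both medians were negative in all 23; without 1 library they ran from -0.113 to -0.0288 (replication) and from -0.0779 to -0.0291 (mitosis). The number terms called 16 to 23 replication lines without 1 number (16 without number 1) and 7 to 13 mitosis lines (7 without number 3). In these fits they called 36.02 to 38.92% of all tested genes, the least without number 3 and the most without number 2.

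Among the 24 genes named by rule, 5 changed sign in some edgeR fit; other lines did too, since 36 of 50 lay below 0 without mutant 4, against 44 with all libraries. Without 1 library, rrm2 ENSDARG00000078069 ran from -0.119 to 0.00972 (above 0 without control 1 or mutant 6), cdc6 from -0.160 to 0.00151 (control 1), ccne2 from -0.0815 to 0.0135 (control 1 or mutant 6), rrm2 ENSDARG00000020711 from -0.0623 to 0.178 (below 0 without control 2, control 3 or mutant 4) and ube2c ENSDARG00000035770 from -0.0998 to 0.0398 (mutant 4). With the block, ccne2 was at 0.00248 without number 1, rrm2 ENSDARG00000020711 at -0.0196 without number 2 and ube2c ENSDARG00000035770 at 0.0373 without number 4. Apart from fewer libraries, the cause was not tested.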
